A study of Mus musculus with 57 samples.

Results

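Inguinal white adipose tissue (WAT) of Mfn2 knock-in (KI) and wild-type (WT) mice was compared on 2 diets, and the results below are the differences of the KI effect between the diets, (KI minus WT on high-fat diet) minus (KI minus WT on chow). All inguinal WAT mice of the series entered this comparison, 29 mice with 45 of the 57 samples, where the whole series has 41 columns of 1 mouse and tissue each. KI mice were males homozygous for R707W in Mfn2, expanded from 1 CRISPR-Cas9 founder on a C57/BL6J background, so the change is present in every tissue, and the WT males were their littermates. At 5 weeks of age mice were allocated at random to chow or to a high-fat diet (HFD) with 45% of kcal as fat, and tissue was taken after 6 months on it. There were 8 KI and 8 WT mice on HFD and 6 KI and 7 WT mice on chow. Each diet had its own WT mice, so the 2 KI effects share no animal. The comparison asks which genes respond to the mutation on one diet only, or in opposite directions on the 2 diets.

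Mitofusin 2 is a GTPase of the outer mitochondrial membrane that brings mitochondria together for fusion. White adipocytes can make fatty acids from sugar by de novo lipogenesis: glucose is broken down by glycolysis to pyruvate, pyruvate enters mitochondria and leaves them as citrate, and citrate is cleaved to acetyl-CoA, which is built into fatty acids in the cytosol. Transcription of these enzymes is known to be driven by insulin and carbohydrate through SREBP and ChREBP factors and to be low on fat-rich diets. The integrated stress response (ISR) is the programme of ATF4 and its relatives that mitochondrial dysfunction can induce.

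Total counts were 8668279 to 11720458 for a chow-fed mouse and 17572752 to 25680411 for an HFD-fed mouse. Each HFD-fed mouse had 2 technical libraries and each chow-fed mouse 1, and the diets came in separate tables, so any main effect of diet cannot be told apart from these. The KI effects are differences within a table. In CPM, counts scaled to a common library size by TMM, with the lowest, median and highest mouse given throughout, Mfn2 was at 130.0, 216 and 225 CPM in chow-fed WT mice and 210.3, 255 and 277 CPM in chow-fed KI mice. Mfn2 on HFD was at 139.6, 174 and 222 CPM in WT mice and 168, 234 and 273 CPM in KI mice. Mfn2 was not called on either diet or between them (interaction adjusted p = 0.994), and since the mutation changes a codon this level does not check the genotypes. The adipocyte genes Adipoq, Lep, Plin1, Fabp4 and Cidec summed to 20729 to 39962 CPM in each mouse. Several libraries stood apart by markers of other tissues. Skeletal muscle markers (14 of 14 measured) summed to 96556 CPM in chow-fed KI mouse 4, against at most 1125 CPM in the other chow-fed mice, and to 6380 CPM in HFD-fed KI mouse 3. Lymphocyte markers (20 of 20 measured) summed to 243 and 881 CPM in chow-fed KI mice 1 and 3 against 31.4 to 50.1 CPM in the other chow-fed KI mice, and to 237 CPM in chow-fed WT mouse 4, 1265 CPM in HFD-fed KI mouse 2 and 936 and 513 CPM in HFD-fed WT mice 2 and 6. Chow-fed WT mouse 4 also had 176 CPM of epithelial and 121 CPM of mesothelial markers, where every other mouse had at most 19.9 and 4.32 CPM. Leaving out these 8 libraries keeps 3 of 6 KI mice on chow, and the main counts are given with and without them.

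Of 17400 genes tested, 110 had a KI effect that differed between the diets (edgeR's quasi-likelihood test, Benjamini-Hochberg adjusted p below 0.01), 36 more positive on HFD (0.207% of genes tested) and 74 more negative on HFD (0.425%). At an unadjusted p below 0.05 there were 2927. In the same fit the KI effect was called for 777 higher (4.47%) and 675 lower genes (3.88%) on HFD, and for 601 higher (3.45%) and 488 lower genes (2.8%) on chow. With each diet fitted on its own table the number called was 472 instead of 1089 on chow and 1886 instead of 1452 on HFD. Both effects were called for 399 genes, and 393 of these had the same direction on both diets. Across all genes tested the 2 effects had a Pearson correlation of 0.44 (Spearman 0.37), which describes genes and not replicates.

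The 110 genes were sorted by the diet on which the KI effect itself was called. Among the 110 genes the KI effect was called on chow only for 45, of which 35 were higher in KI mice, and on HFD only for another 45, of which 26 were lower and 19 higher in KI mice. It was called in opposite directions on the diets for 6 genes, in the same direction with the larger effect on chow for 8, and on neither diet for 6. No gene was called in the same direction with the larger effect on HFD. The estimates had unlike signs for 80 of the 110 genes, 55 of them with a positive estimate on chow and a negative one on HFD, and for 45 the 95% intervals on both diets lay on opposite sides of 0. Signs were unlike for 34 of the 45 genes called on chow only and for 34 of the 45 called on HFD only. All 110 were picked by the difference of the 2 effects, which favours unlike signs, so these counts are no further support for it. The classes name the diet that passed the threshold, and a missing call on the other diet does not show a missing effect. A gene called on one diet and not on the other is no evidence of a difference by itself: of 1053 genes called on HFD and not on chow only 45 had a called interaction, and of 690 called on chow and not on HFD only 45. Genotypes did not overlap on HFD for 44 of the 110 genes and on chow for 37. Over all genes tested the whole KI range was above the WT range for 1.86% on HFD and 2.17% on chow, and below it for 2.26% and 1.45%. Genes picked for a large difference of the KI effects tend to be apart on a diet, so this excess is no further support. Part of the naming rule also asked for no overlap on a diet, so its absence in the genes below is descriptive. The count of 110 rested on single mice: it ranged from 69 without chow-fed KI mouse 1 to 269 without chow-fed KI mouse 5, was also moved by over 1.5 times without HFD-fed WT mouse 7 (220), chow-fed WT mouse 4 (206), HFD-fed KI mouse 7 (71) and chow-fed WT mouse 7 (73), and was 18 without the 8 libraries that stood apart. All 110 kept their sign in the 29 fits that left out 1 mouse, and 58 were called in all of them. Of the genes described below, chosen by the naming rule, Elovl3, Hephl1, Hebp2, Ncan, Phgdh and Fads1 were still called without the 8 libraries, and the others were not.

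**Figure D1:**
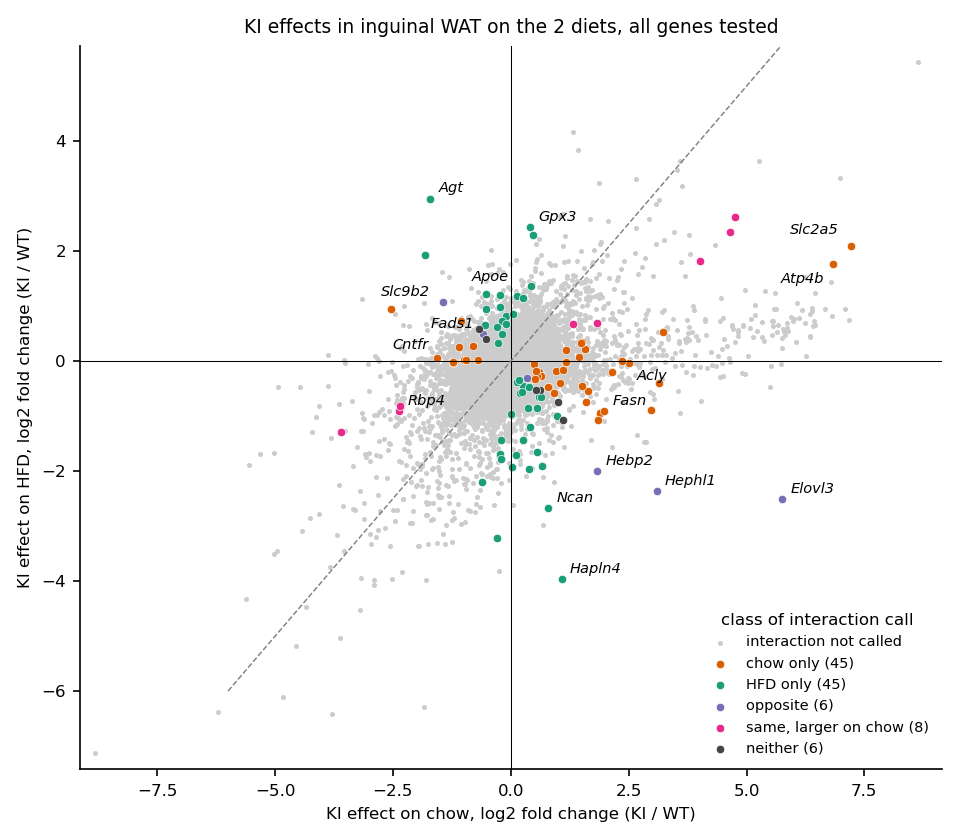
KI effect on chow (x axis) against KI effect on HFD (y axis), each as a log2 fold change of KI over WT, for the 17400 genes tested; colours give the class of the 110 genes with a called interaction and the dashed line marks equal effects. Of the 110 called genes, 55 lie in the lower right quadrant and 25 in the upper left, among them 34 of 45 genes called on chow only and 34 of 45 called on HFD only, and Hephl1, Elovl3 and Hebp2 are called higher in KI mice on chow and lower on HFD.

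De novo lipogenesis had more called interactions than any other list, 8 of 19. Over all genes tested 0.425% were called more negative and 0.207% more positive on HFD. The lists were chosen with earlier results of these data known, so this rank is no further support. On chow 3.45% of all genes tested were higher and 2.8% lower in KI mice, and on HFD 4.47% and 3.88%. These shares also serve for the lists below. Of the 19 lipogenic genes, 10 were higher and none lower in KI mice on chow, with a median log2 fold change of 1.2. On HFD 2 were higher and 2 lower, with a median of -0.034. The interaction was more negative on HFD for 7 (Fasn, Acly, Elovl6, Elovl3, Me1, Slc25a1 and Scd2) and more positive for 1 (Fads1), with a median of -1.46 against 0.017 over all genes tested. Acly (chr11:100476353-100528000 in GRCm38), which cleaves citrate to acetyl-CoA, was at 117, 156 and 225 CPM in chow-fed WT mice and 313, 620.3 and 2316 CPM in chow-fed KI mice. Acly on HFD was at 98.4, 129.8 and 199 CPM in WT mice and 99.9, 127 and 184 CPM in KI mice. Every chow-fed KI mouse thus lay above every chow-fed WT mouse, and the genotypes overlapped on HFD. The log2 fold change of Acly was 2.50 ± 0.31 (SE) on chow (adjusted p = 2.01e-06) and -0.034 ± 0.27 on HFD (adjusted p = 0.957, 95% interval -0.58 to 0.51), and their difference was -2.54 ± 0.40 (adjusted p = 0.000945).

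Fasn (chr11:120805846-120824547), the fatty acid synthase, was at 839, 1783 and 3181 CPM in chow-fed WT mice and 2022, 4601 and 19258 CPM in chow-fed KI mice. Fasn on HFD was at 476, 912 and 1594 CPM in WT mice and 229, 442 and 941 CPM in KI mice. It was higher in KI mice on chow by 1.98 ± 0.41 (adjusted p = 0.00142), with overlapping genotypes, and its difference between diets was -2.89 ± 0.54 (adjusted p = 0.00404). Elovl6 (chr3:129532355-129638495), which elongates palmitate, was at 14.1, 23 and 43.4 CPM in chow-fed WT mice and 41.9, 107 and 614 CPM in chow-fed KI mice. Elovl6 on HFD was at 7.71, 15.3 and 21.1 CPM in WT mice and 8.37, 9.94 and 21.8 CPM in KI mice. Genotypes overlapped slightly on chow and widely on HFD, and the difference between diets was -3.56 ± 0.59 (adjusted p = 0.00151). Me1 (chr9:86581371-86695953), the malic enzyme that supplies NADPH, was at 297, 379.6 and 543 CPM in chow-fed WT mice and 528, 774 and 3001 CPM in chow-fed KI mice. Me1 on HFD was at 325, 483 and 732 CPM in WT mice and 271, 333 and 441 CPM in KI mice. Chow-fed KI mice were mostly above chow-fed WT mice, and the difference was -2.18 ± 0.38 (adjusted p = 0.00171). Slc25a1 (chr16:17925223-17928219), the mitochondrial citrate carrier, was at 232, 306 and 471 CPM in chow-fed WT mice and 405, 743 and 3618 CPM in chow-fed KI mice. Slc25a1 on HFD was at 193, 311 and 514 CPM in WT mice and 109.8, 156 and 193 CPM in KI mice. On HFD every KI mouse was below every WT mouse for Slc25a1, although that effect was -1.08 ± 0.31 with an adjusted p of 0.0153, and the difference between diets was -2.92 ± 0.46 (adjusted p = 0.00093).

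The carboxylases that commit acetyl-CoA to fatty acids did not show a called interaction. Acaca was higher on chow by 2.21 ± 0.34 (adjusted p = 5.91e-05) and had 0.75 ± 0.30 on HFD, with a difference of -1.46 ± 0.45 (adjusted p = 0.0769), and Acacb had a difference of -0.97 ± 0.41 (adjusted p = 0.212). For Scd1, the main stearoyl-CoA desaturase of adipose tissue, the difference was -0.076 ± 0.37 (95% interval -0.84 to 0.69). Its paralogue Scd2 was lower in KI mice on HFD only, at 88.2, 177 and 311 CPM in WT and 35.2, 46.8 and 60.9 CPM in KI mice without overlap, with a log2 fold change of -1.96 ± 0.31 (adjusted p = 5.98e-05) against 0.39 ± 0.33 on chow. The call of the Scd2 interaction was lost, with adjusted p up to 0.013, without chow-fed KI mouse 1 or 3 or chow-fed WT mouse 3 or 7, and reads of the Scd paralogues may be split between them. Fads1 (chr19:10182888-10196870), the delta-5 desaturase of polyunsaturated fatty acids, was at 59, 71.2 and 104 CPM in chow-fed WT mice and 43.4, 52.4 and 60.9 CPM in chow-fed KI mice. Fads1 on HFD was at 34.4, 47.1 and 59.5 CPM in WT mice and 71.9, 88.8 and 112 CPM in KI mice. Fads1 moved against the rest of the list, higher on HFD by 0.94 ± 0.13 without overlap (adjusted p = 3.37e-06) and at -0.52 ± 0.14 on chow (adjusted p = 0.0132), a difference of 1.47 ± 0.19 (adjusted p = 5.6e-05).

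The lipogenic rise on chow was uneven among the KI mice. Mice 1 and 3 ranked first and second of the 6 chow-fed KI mice for Fasn, Acly, Elovl6, Me1 and Slc25a1, and mouse 5 was last for all of these. Mice 1 and 3 were also those with the high lymphocyte marker sums, and the part of this in the result was not tested. Leaving out each mouse in turn, the list kept 6 to 8 genes more negative on HFD, its interaction median ranged from -1.64 to -1.0 (without chow-fed KI mouse 1), and Fasn, Acly, Elovl6, Me1 and Slc25a1 were called in all 29 such fits. Without the 8 libraries that stood apart only 1 gene, the barely detected Elovl3, was called more negative on HFD. Fasn, Acly, Elovl6, Me1 and Slc25a1 lost their calls there, and also with a block for mouse number. Without the 8 libraries the list's interaction median was -0.712 and its chow median 0.592, with 3 genes called higher on chow. On the chow table alone 5 genes of the list were called higher instead of 10.

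**Figure D2:**
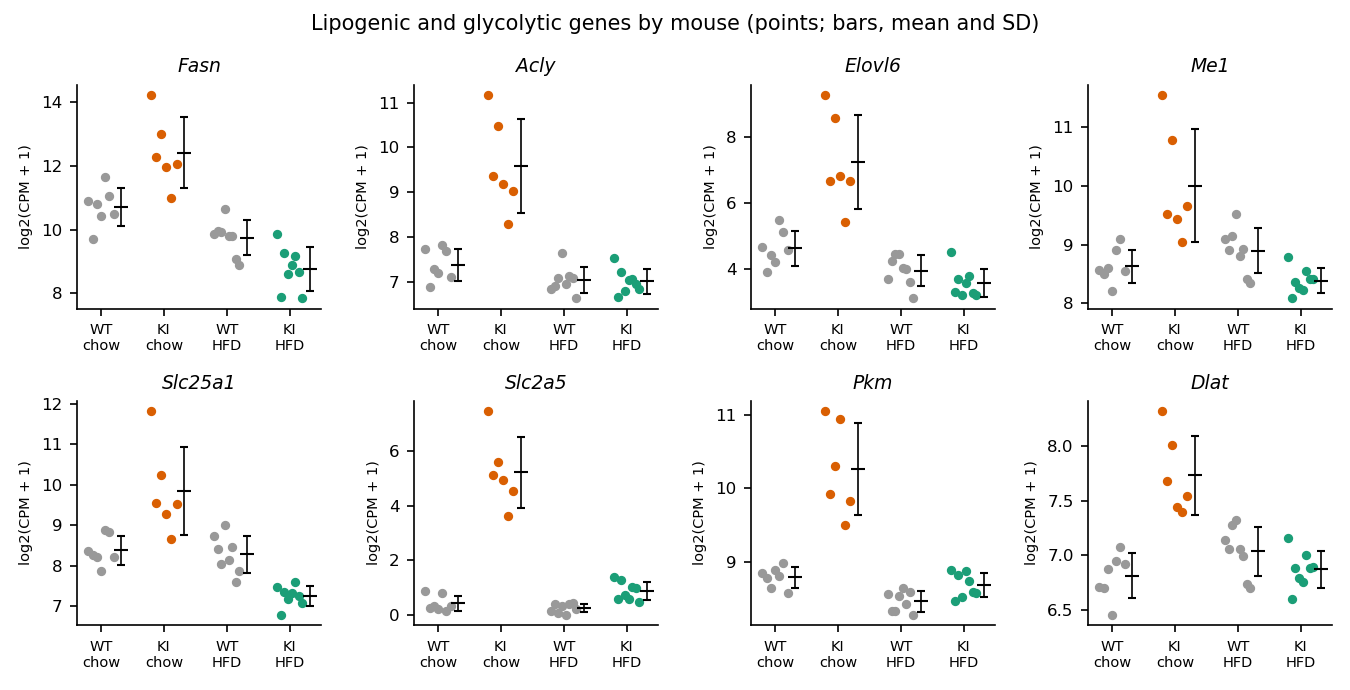
Expression by mouse, as log2(CPM + 1), of 8 lipogenic and glycolytic genes in the 4 groups; each point is a mouse and bars give mean and SD of the log2 values. On chow the KI mean is above the WT mean for each gene. On HFD the KI mean is lower for Fasn and Slc25a1, close to the WT mean for Acly and higher for Slc2a5.

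The promoters of 3 genes of this contrast are shown because they moved on different diets: Fasn and Slc25a1 were higher in KI mice on chow, and Nsdhl, a sterol synthesis enzyme described below, was lower on HFD. Each sequence holds the 250 bases before the RefSeq start in GRCm38.p6, read 5′ to 3′ on the gene's strand, and capitals mark CCAAT (or ATTGG on the other strand), which the factor NF-Y is known to bind beside SREBP, and the E-box CACGTG.
Fasn, chr11:120824548-120824797, minus strand: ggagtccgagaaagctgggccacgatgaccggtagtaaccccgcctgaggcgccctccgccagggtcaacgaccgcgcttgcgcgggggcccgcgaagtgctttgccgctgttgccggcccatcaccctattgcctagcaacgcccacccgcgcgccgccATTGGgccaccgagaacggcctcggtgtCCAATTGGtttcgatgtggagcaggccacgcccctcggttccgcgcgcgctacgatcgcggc
Slc25a1, chr16:17928220-17928469, minus strand: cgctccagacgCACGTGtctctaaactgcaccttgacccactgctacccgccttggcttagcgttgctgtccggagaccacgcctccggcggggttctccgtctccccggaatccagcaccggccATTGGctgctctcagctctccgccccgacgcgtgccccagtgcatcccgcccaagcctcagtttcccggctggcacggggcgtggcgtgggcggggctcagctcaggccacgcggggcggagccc
Nsdhl, chrX:72918271-72918520, plus strand: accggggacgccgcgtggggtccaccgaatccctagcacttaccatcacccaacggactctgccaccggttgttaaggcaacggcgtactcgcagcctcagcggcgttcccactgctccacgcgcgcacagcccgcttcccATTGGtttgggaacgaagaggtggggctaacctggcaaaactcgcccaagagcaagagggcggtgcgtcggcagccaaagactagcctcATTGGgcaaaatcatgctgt
CCAAT occurred 3 times in the Fasn window, 2 of these overlapping, once in Slc25a1 and 2 times in Nsdhl. On either strand it was in at least 1 promoter of 15 of 16 cholesterol synthesis genes and 8 of 15 de novo lipogenesis genes with an entry, against 39.4% of all tested genes and 33.8% of all promoters. It was in 40.7% of genes with a negative and in 40.7% of genes with a positive called interaction. The SREBP element TCACNCCAC was in 1.05% of all promoters and 1.25% of tested genes, in 1 cholesterol synthesis gene (Hmgcs1) and 1 lipogenic gene (Mlxipl). The ATF4-type element TGATGNAA was in 3.45% of all promoters and 2.48% of tested genes, in 9 of 34 ISR genes and in none of the 15 lipogenic genes. CACGTG was in 6.02% of all promoters, in 9.39% of tested genes and in 3 of 15 lipogenic genes. These are letter matches in a short window and not sites of binding.

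Genes of glycolysis and pyruvate entry were also higher in KI mice chiefly on chow. Of 24 glycolysis and pentose phosphate genes, 14 were higher and none lower in KI mice on chow (median 0.65, and 6 higher on the chow table alone). On HFD 1 was higher and 1 lower (median 0.091). Among all genes tested 3.45% were higher on chow, and 0.425% had an interaction called more negative on HFD. Pfkl, Gapdh, Eno1 and Pkm had a called interaction, all more negative on HFD, and the list's interaction median was -0.66. Pkm (chr9:59656368-59679375), the pyruvate kinase of this tissue, was at 381, 449 and 503 CPM in chow-fed WT mice and 724, 1119 and 2117 CPM in chow-fed KI mice. Pkm on HFD was at 309.8, 356 and 400.3 CPM in WT mice and 353, 404 and 475 CPM in KI mice. All chow-fed KI mice were above all chow-fed WT mice, with a log2 fold change of 1.58 ± 0.17 (adjusted p = 1.57e-07) against 0.23 ± 0.15 on HFD (95% interval -0.083 to 0.54), and the difference was -1.35 ± 0.23 (adjusted p = 0.0012). The interaction was -1.28 ± 0.24 for Pfkl, -1.18 ± 0.24 for Eno1 and -1.15 ± 0.25 for Gapdh (adjusted p = 0.00404, 0.00709 and 0.00985). Pfkl was called in all 29 fits without 1 mouse, Eno1 in 23 (adjusted p up to 0.0134) and Gapdh in 8 (adjusted p up to 0.0247). The muscle-marker library, chow-fed KI mouse 4, was the highest chow-fed KI mouse for Gapdh. The part of muscle in the values of this list was not tested. Without that mouse 11 genes were higher on chow (9 without chow-fed KI mouse 1), 3 had a negative interaction and the interaction median was -0.472. The number with a negative interaction ran from 2 to 8 over the fits without 1 mouse (2 without HFD-fed KI mouse 7, HFD-fed WT mouse 1 or chow-fed WT mouse 1, 3, 5 or 7, and 8 without chow-fed KI mouse 5) and was 0 without the 8 libraries, with 7 of the list still higher on chow.

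Dlat (chr9:50634633-50659780), the E2 subunit of pyruvate dehydrogenase, was at 86.8, 116 and 134 CPM in chow-fed WT mice and 167, 195 and 318 CPM in chow-fed KI mice. Dlat on HFD was at 103, 132 and 159 CPM in WT mice and 96, 117 and 141 CPM in KI mice. The genotypes were apart on chow and overlapped on HFD, with 0.95 ± 0.13 on chow, -0.17 ± 0.12 on HFD and a difference of -1.12 ± 0.18 (adjusted p = 0.000814). The E1 subunit Pdhb behaved likewise, with 1.52 ± 0.18 on chow (adjusted p = 6.66e-07) and a difference of -1.17 ± 0.24 (adjusted p = 0.007), called in 20 of the 29 fits without 1 mouse (adjusted p up to 0.012). These 2 were the only called interactions among 24 TCA cycle and pyruvate dehydrogenase genes, of which 9 were higher and 1 lower on chow and 6 higher and 1 lower on HFD. On separate tables the order of the diets turned, with 5 higher on chow and 10 on HFD. Mpc2, a subunit of the mitochondrial pyruvate carrier, had a called difference of -1.14 ± 0.24 (adjusted p = 0.00882) with 0.61 ± 0.18 on chow and -0.52 ± 0.16 on HFD, neither past the threshold, and it was called in 11 of the 29 fits without 1 mouse (adjusted p up to 0.0174).

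The fructose transporter gene Slc2a5 (chr4:150119283-150144169) was at 0.105, 0.24 and 0.82 CPM in chow-fed WT mice and 11.5, 32.1 and 177 CPM in chow-fed KI mice. Slc2a5 on HFD was at 0, 0.219 and 0.335 CPM in WT mice and 0.389, 0.824 and 1.61 CPM in KI mice. Slc2a5 was near the limit of detection in WT mice on both diets, and KI mice were above WT mice without overlap on both. Its log2 fold change was 7.22 ± 0.63 on chow (adjusted p = 9.33e-09) and 2.09 ± 0.58 on HFD (adjusted p = 0.0129), so the HFD effect missed the threshold and both estimates were above 0. The difference was -5.13 ± 0.91 (adjusted p = 0.00241), and these folds depend on the few counts of WT mice. The other 6 tested genes of sugar transport and fructose entry, Slc2a1, Slc2a3, Slc2a4, Slc2a8, Khk and Tkfc, had interactions between -0.056 and 0.41, none called. Atp4b, a subunit of the proton pump known from stomach, had the same pattern at low level, with 0.975, 1.78 and 4.89 CPM in chow-fed KI mice and at most 0.103 CPM in chow-fed WT mice. Its interaction of -5.07 ± 1.08 (adjusted p = 0.00964) was called in only 7 of the 29 fits without 1 mouse (adjusted p up to 0.0227).

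The lists of lipid storage and use held 1 called interaction each, all more negative on HFD, where 0.425% of all genes tested were so called. Plin2, a lipid droplet coat protein, was at 376, 555 and 745 CPM in chow-fed WT and 737, 901 and 1983 CPM in chow-fed KI mice, with overlap, and at 499, 603 and 900.0 CPM and 384, 461 and 671 CPM on HFD. It was the only one of 22 lipolysis and lipid droplet genes with a called interaction (-1.46 ± 0.27, adjusted p = 0.00299). Agpat2, the acyltransferase that makes phosphatidic acid, was the only one of 13 triglyceride synthesis genes. Agpat2 was at 336, 413 and 501 CPM in chow-fed WT mice and 473, 536 and 1847 CPM in chow-fed KI mice. Agpat2 on HFD was at 216, 498 and 629 CPM in WT mice and 129.6, 227 and 311 CPM in KI mice. It was lower in KI mice on HFD, at -0.99 ± 0.25 (adjusted p = 0.00695) and had 0.98 ± 0.28 on chow (adjusted p = 0.0183), and the difference was -1.97 ± 0.38 (adjusted p = 0.00422). The only one of 22 beta-oxidation genes was Slc25a20, the carnitine-acylcarnitine carrier, at 62.1, 70.6 and 83.6 CPM in chow-fed WT and 96.9, 104 and 148 CPM in chow-fed KI mice without overlap, and at 59.2, 76 and 88.3 and 58.8, 64.5 and 74.1 CPM on HFD. Its difference was -0.86 ± 0.13 (adjusted p = 0.000799).

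Called in opposite directions were 6 genes, Hephl1, Elovl3, Hebp2 and Elmod2 higher in KI mice on chow and lower on HFD, and Slc9b2 and Fgf11 lower on chow and higher on HFD. Hephl1 (chr9:15051841-15112108), a copper-dependent ferroxidase, was at 0.12, 0.95 and 1.27 CPM in chow-fed WT mice and 2.65, 4.67 and 13.5 CPM in chow-fed KI mice. Hephl1 on HFD was at 1.3, 4.64 and 13.9 CPM in WT mice and 0.659, 1.05 and 1.58 CPM in KI mice. Its effects were 3.10 ± 0.48 on chow and -2.36 ± 0.41 on HFD (adjusted p = 4.97e-05 and 0.000141), without overlap on chow. Hebp2 (chr10:18539498-18546076), a haem-binding protein, was at 1.57, 1.85 and 2.79 CPM in chow-fed WT mice and 2.82, 5.14 and 20.0 CPM in chow-fed KI mice. Hebp2 on HFD was at 2.86, 7.29 and 16.7 CPM in WT mice and 1.36, 1.97 and 2.59 CPM in KI mice. Here the genotypes were apart on both diets, with 1.84 ± 0.37 on chow and -2.01 ± 0.32 on HFD, and a difference of -3.84 ± 0.49 (adjusted p = 4.79e-05). Elovl3 (chr19:46131897-46135307), an elongase of very long fatty acids known as a brown and beige fat gene, was at 0, 0 and 0.192 CPM in chow-fed WT mice and 0.265, 2.06 and 12.5 CPM in chow-fed KI mice. Elovl3 on HFD was at 0.26, 0.899 and 1.93 CPM in WT mice and 0.043, 0.164 and 0.308 CPM in KI mice. Elovl3 was barely detected in chow-fed WT mice, so the size of its difference (-8.27 ± 1.03, adjusted p = 4.46e-05) depends on few counts, and it was called in all 29 fits without 1 mouse.

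Slc9b2 (chr3:135307700-135345387), a sodium-proton exchanger, was at 3.98, 6.65 and 7.67 CPM in chow-fed WT mice and 1.24, 1.8 and 4.41 CPM in chow-fed KI mice. Slc9b2 on HFD was at 0.733, 1.5 and 2.75 CPM in WT mice and 2.11, 3.65 and 4.48 CPM in KI mice. The ranges overlapped on both diets, the effects were -1.45 ± 0.31 on chow and 1.07 ± 0.27 on HFD, and the difference was 2.52 ± 0.42 (adjusted p = 0.00107). Elmod2, a GTPase-activating protein for ARL2, and Fgf11, an intracellular FGF homologue, moved less. Elmod2 had 0.33 ± 0.083 on chow and -0.31 ± 0.074 on HFD, and Fgf11 -0.58 ± 0.15 on chow and 0.49 ± 0.13 on HFD. The number of opposite genes was 3 to 11 without 1 mouse (3 without HFD-fed KI mouse 5, 7 or 8, and 11 without chow-fed KI mouse 5 or chow-fed WT mouse 4) and 2 without the 8 libraries that stood apart.

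The interaction with the smallest p was that of Ncan, which was lower in KI mice on HFD only. Ncan (chr8:70093085-70120873), the proteoglycan neurocan, was at 2.97, 4.84 and 10.1 CPM in chow-fed WT mice and 5.47, 8.28 and 18.7 CPM in chow-fed KI mice. Ncan on HFD was at 12, 17.3 and 30.0 CPM in WT mice and 2.1, 2.98 and 3.87 CPM in KI mice. Every HFD-fed KI mouse was below every HFD-fed WT mouse, and on chow the ranges overlapped with higher values in KI mice. The log2 fold change was -2.68 ± 0.25 on HFD (adjusted p = 9.61e-09) and 0.79 ± 0.27 on chow (adjusted p = 0.0464), a difference of -3.46 ± 0.36 (adjusted p = 2.97e-06). Its neighbour on the chromosome, Hapln4 (chr8:70083457-70090862), which encodes a link protein of hyaluronan and proteoglycans, had the same pattern at lower level, with 0.818, 2.61 and 4.18 CPM in WT and 0, 0.174 and 0.292 CPM in KI mice on HFD and at most 0.761 CPM in any chow-fed mouse. Its interaction of -5.04 ± 0.98 (adjusted p = 0.00467) was lost without chow-fed KI mouse 1 or 3 (adjusted p up to 0.0347). By the coordinates given these genes do not overlap. Whether reads reaching past the end of either gene were counted for its neighbour was not tested.

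Cholesterol synthesis was lower in KI mice chiefly on HFD, but the difference between diets was called for 1 gene. Of 21 genes 9 were lower and none higher on HFD (median -0.56), where 3.88% of all genes tested were lower. The list's median on chow was -0.21, with the interaction below 0 for 16 and a median of -0.54. Nsdhl (chrX:72918557-72958514), which removes methyl groups of sterols, was at 23.5, 33 and 34.5 CPM in chow-fed WT mice and 19.3, 23 and 36.3 CPM in chow-fed KI mice. Nsdhl on HFD was at 31.4, 51.2 and 78.6 CPM in WT mice and 15.4, 18.8 and 23.4 CPM in KI mice. Nsdhl was apart on HFD and overlapped on chow, at -1.43 ± 0.16 (adjusted p = 1.72e-07) against -0.21 ± 0.18, and the difference was -1.22 ± 0.24 (adjusted p = 0.00451). This call was lost without chow-fed KI mouse 1 or 3 (adjusted p up to 0.0122) and, with the 8 libraries left out, no interaction of the list was called. Hmgcs1, the HMG-CoA synthase, and Sqle, the squalene epoxidase, were lower on HFD, at -0.96 ± 0.17 and -0.60 ± 0.16 and had -0.27 ± 0.19 and -0.039 ± 0.18 on chow, with differences of -0.69 ± 0.25 and -0.56 ± 0.24 (adjusted p = 0.145 and 0.229). For Mvk, mevalonate kinase, the difference was -0.0072 ± 0.15 (95% interval -0.31 to 0.29). Insig1, the SREBP retention protein, lay just outside the threshold, with -2.10 ± 0.24 on HFD, -0.50 ± 0.26 on chow and a difference of -1.60 ± 0.34 (adjusted p = 0.0104). Among the 14 genes of SREBP control and LDL uptake the call fell on Npc1, a lysosomal cholesterol exporter, higher on chow by 0.49 ± 0.082 with a difference of -0.53 ± 0.11 (adjusted p = 0.00798), and it was called in 10 of the 29 fits without 1 mouse (adjusted p up to 0.0169).

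Mitochondrially encoded mRNAs, which code for respiratory chain subunits, were lower on HFD for 13 of 13 and on chow for 3 of 13 (mt-Nd5, mt-Nd6 and mt-Co1). Among all genes tested 3.88% were lower on HFD and 2.8% on chow. The list medians were -1.78 on HFD and -0.46 on chow, and all 13 interactions were negative with a median of -1.23. mt-Nd2, a subunit of complex I, was at 1516, 2509.8 and 3344 CPM in chow-fed WT mice and 1462, 1730.4 and 4034 CPM in chow-fed KI mice. mt-Nd2 on HFD was at 4579, 10054 and 14071 CPM in WT mice and 2065, 2660.2 and 3280.1 CPM in KI mice. For mt-Nd2 all HFD-fed WT mice were above all HFD-fed KI mice, and the genotypes overlapped on chow. Only mt-Nd2 was called (-1.58 ± 0.34, adjusted p = 0.00964), in 9 of the 29 fits without 1 mouse (adjusted p up to 0.0182). The highest chow-fed KI mouse was mouse 4, the muscle-marker library. Without this mouse 5 of 13 were lower on chow, with a chow median of -0.712 and an interaction median of -0.945. Without the 8 libraries that stood apart 3 were lower on chow, with a chow median of -0.954. The interaction median was then -1.08, and no interaction of the list was called. Without HFD-fed WT mouse 7 there were 4 called interactions in the list, without chow-fed KI mouse 5 there were 3, and on the chow table alone no gene of the list was called lower on chow. The 13 values come from transcripts of 1 genome and are not independent.

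**Figure D3:**
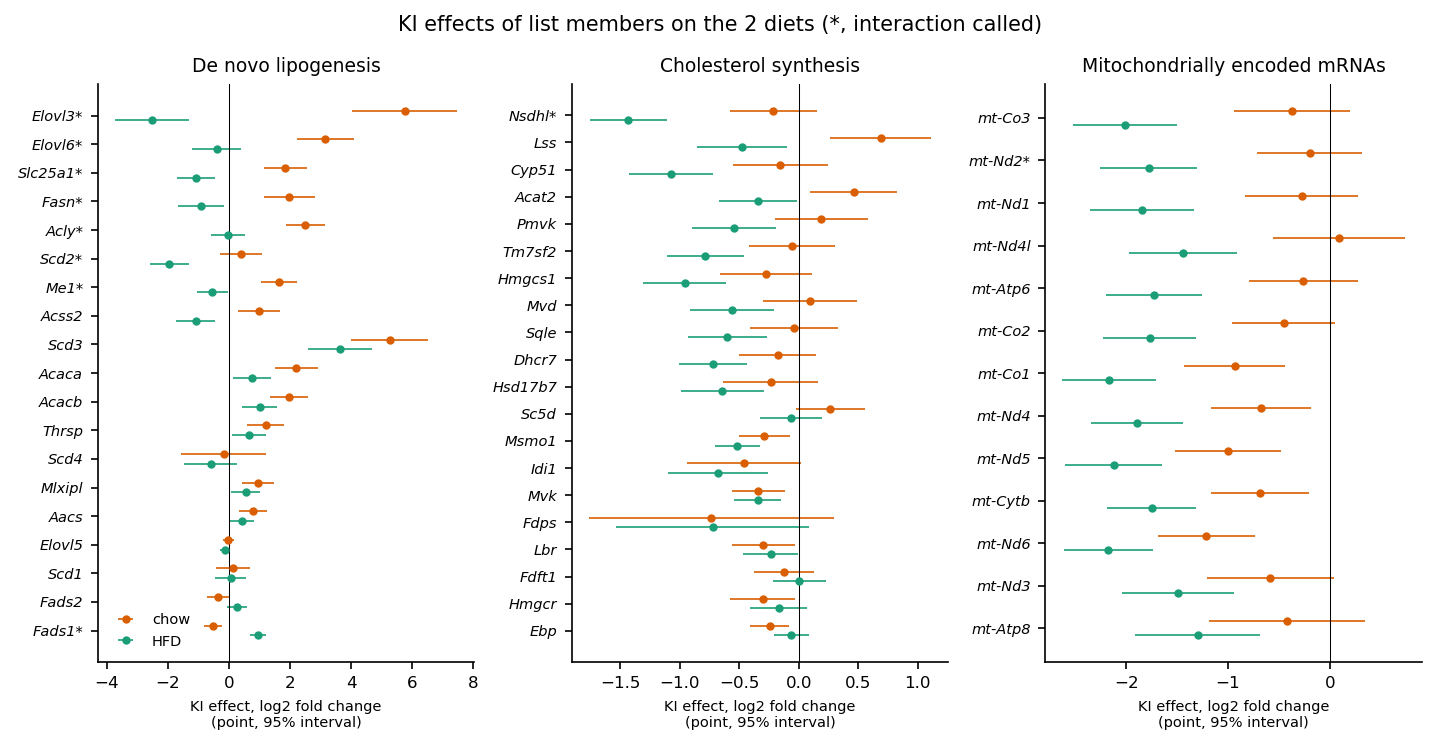
KI effect on chow and on HFD, as log2 fold change with 95% interval, for tested genes of de novo lipogenesis, cholesterol synthesis and the mitochondrially encoded mRNAs; an asterisk marks a called interaction. In the left panel the chow estimates of the 7 lower genes with an asterisk lie right of 0 (Scd2 with an interval that spans 0) and their HFD estimates at or left of 0. In each panel the HFD estimates lie left of the chow estimates for most genes.

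Genes higher in KI mice on HFD only included secreted and antioxidant proteins. Apoe (chr7:19696109-19699188), apolipoprotein E, was at 4292, 5969.7 and 7911 CPM in chow-fed WT mice and 6023, 6669.9 and 8071 CPM in chow-fed KI mice. Apoe on HFD was at 2336, 2968 and 3322 CPM in WT mice and 5297, 6537 and 7588 CPM in KI mice. On HFD the genotypes were apart (1.19 ± 0.11, adjusted p = 1.77e-08), and on chow they overlapped (0.14 ± 0.13, 95% interval -0.12 to 0.39). The difference was 1.05 ± 0.17 (adjusted p = 0.000945). Gpx3 (chr11:54902453-54910377), the extracellular glutathione peroxidase, was at 459, 1077 and 1647 CPM in chow-fed WT mice and 504, 1352 and 2027 CPM in chow-fed KI mice. Gpx3 on HFD was at 146, 258 and 532 CPM in WT mice and 1115, 1534 and 1754 CPM in KI mice. It was higher on HFD by 2.43 ± 0.29 without overlap and had 0.41 ± 0.30 on chow, and the difference of 2.03 ± 0.41 (adjusted p = 0.00791) was called in 11 of the 29 fits without 1 mouse (adjusted p up to 0.0159). Gstm1, a glutathione S-transferase with close paralogues, was at 198, 281 and 441 CPM in WT and 477, 667 and 871 CPM in KI mice on HFD and at 308, 400.4 and 577 and 262, 348 and 418 CPM on chow, with a difference of 1.43 ± 0.22 (adjusted p = 0.000473).

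Timp4 (chr6:115241892-115252205), an inhibitor of matrix metalloproteases, was at 483, 568 and 855 CPM in chow-fed WT mice and 255, 476 and 565 CPM in chow-fed KI mice. Timp4 on HFD was at 158, 213 and 358 CPM in WT mice and 378, 568 and 611 CPM in KI mice. The effects were 1.23 ± 0.17 on HFD without overlap and -0.52 ± 0.19 on chow (adjusted p = 0.069), a difference of 1.75 ± 0.26 (adjusted p = 0.00043). Agt (chr8:124556534-124569706), angiotensinogen, was at 2.83, 29.2 and 119 CPM in chow-fed WT mice and 4.97, 10.1 and 19.1 CPM in chow-fed KI mice. Agt on HFD was at 1.25, 2.37 and 3.16 CPM in WT mice and 9.7, 18.3 and 25.7 CPM in KI mice. Agt was higher on HFD by 2.96 ± 0.48 without overlap (adjusted p = 7.3e-05) and had -1.72 ± 0.51 on chow (adjusted p = 0.0234). Its difference of 4.67 ± 0.70 (adjusted p = 0.00063) was the largest positive one among the called genes. The highest chow-fed WT mouse was mouse 4, the library with epithelial and mesothelial markers, and the Agt call was lost without the 8 libraries that stood apart and with voom, and held in all 29 fits without 1 mouse. Morn4 was at 0.876, 1.85 and 4.14 CPM in WT and 6.81, 9.97 and 11.3 CPM in KI mice on HFD and at 3.77, 5.18 and 9.23 and 4.12, 6.91 and 12.8 CPM on chow, and its difference of 1.81 ± 0.38 (adjusted p = 0.00798) was called in 10 of the 29 fits without 1 mouse (adjusted p up to 0.0194).

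**Figure D4:**
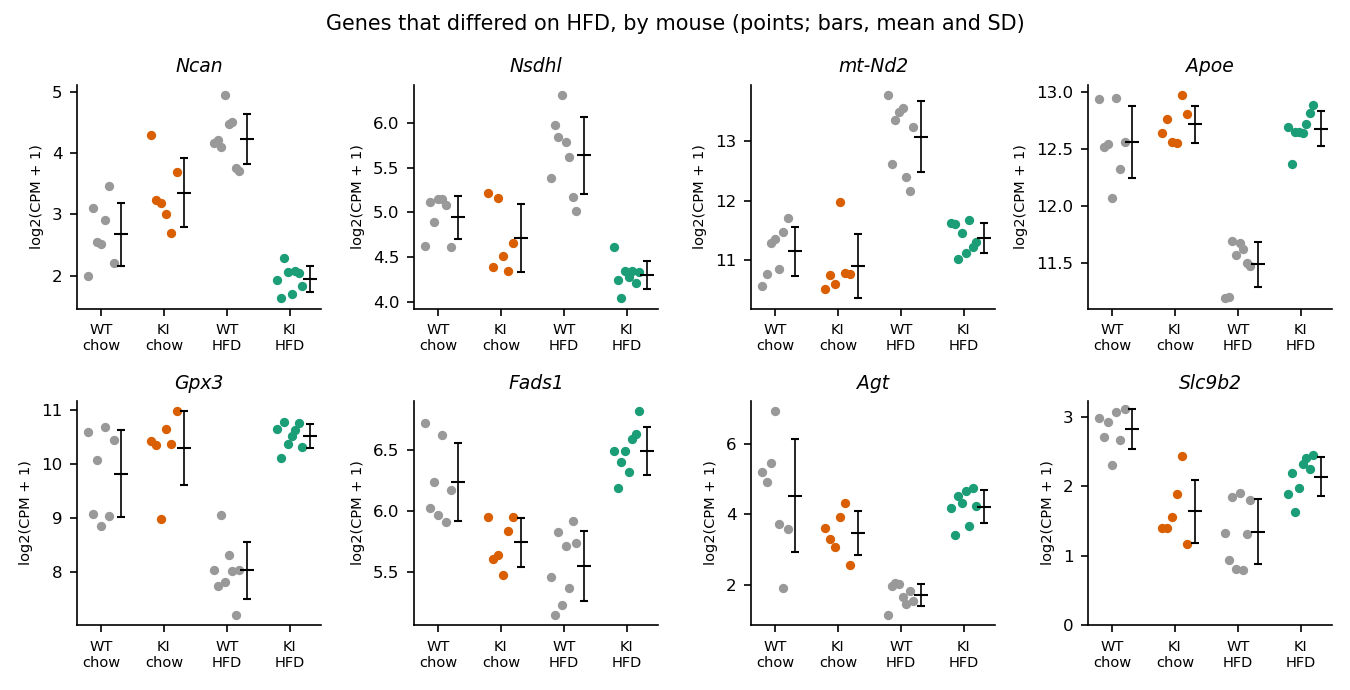
Expression by mouse, as log2(CPM + 1), of 8 genes with a called interaction; each point is a mouse and bars give mean and SD of the log2 values. On HFD all KI mice lie below all WT mice for Ncan, Nsdhl and mt-Nd2 and above them for Apoe, Gpx3 and Agt. For Fads1 and Slc9b2 the KI mean is below the WT mean on chow and above it on HFD.

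Fewer genes were lower in KI mice on chow only, 10 of 45. Cntfr (chr4:41657498-41697089), the receptor of ciliary neurotrophic factor, was at 15.9, 21.7 and 33.5 CPM in chow-fed WT mice and 5.0, 7.45 and 11.8 CPM in chow-fed KI mice. Cntfr on HFD was at 9.04, 12.2 and 15.2 CPM in WT mice and 5.0, 13.7 and 17 CPM in KI mice. The genotypes were apart on chow (-1.56 ± 0.24, adjusted p = 4.46e-05) and overlapped on HFD (0.063 ± 0.21, 95% interval -0.36 to 0.48), and the difference was 1.62 ± 0.31 (adjusted p = 0.00451, and 0.0112 without chow-fed KI mouse 1). Rbp4 (chr19:38116620-38125321), the retinol carrier of plasma that adipocytes secrete, was at 479.9, 582 and 646 CPM in chow-fed WT mice and 80.4, 83.4 and 178 CPM in chow-fed KI mice. Rbp4 on HFD was at 139, 268 and 365 CPM in WT mice and 97.7, 146 and 185 CPM in KI mice. It was lower in KI mice on both diets, at -2.37 ± 0.22 on chow and -0.91 ± 0.19 on HFD, and the difference was 1.46 ± 0.28 (adjusted p = 0.00453, and 0.0114 without chow-fed KI mouse 1). Of 15 secreted adipocyte proteins 8 were lower on chow (3 on the chow table alone) and 6 on HFD, against 2.8% and 3.88% of all genes tested. Only Agt and Rbp4 of this list had a called interaction. For leptin, Lep had -1.51 ± 0.29 on chow (adjusted p = 0.000711) and -0.62 ± 0.26 on HFD (adjusted p = 0.101). The difference of 0.89 ± 0.38 was not called (adjusted p = 0.225). The study, which used DESeq2, reported Lep as significantly lower in KI mice on HFD as well, so the missed HFD call depends on the fit. Adiponectin, Adipoq, was lower on both diets, with a difference of -0.20 ± 0.18 (95% interval -0.56 to 0.17). Fibroblast and progenitor markers (17 of 17 measured) summed to 6129, 7115 and 8404 CPM in chow-fed KI and 8387, 16642 and 18768 CPM in chow-fed WT mice. On HFD they summed to 6948, 10201.5 and 11213 CPM in KI and 8763, 11846 and 14294 CPM in WT mice. The lowest chow-fed WT mouse was mouse 4, the library with epithelial and mesothelial markers, and the next was mouse 6 at 14254 CPM. Fewer cells of a type and less RNA per cell cannot be told apart in bulk tissue, and the part of these cells in the results was not tested.

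Of 39 ISR genes 19 were higher in KI mice on HFD and 17 on chow (10 on the chow table alone), none lower. The shares of all genes tested that were higher were 4.47% and 3.45%. A called difference between the diets was found for 2 ISR genes. The list had KI effects with medians of 0.52 and 0.56 and an interaction median of 0.064. Atf5, a transcription factor of the ISR, was at 155, 254 and 310.5 CPM in chow-fed WT mice and 759.7, 992 and 1542 CPM in chow-fed KI mice. Atf5 on HFD was at 88.8, 130.3 and 233 CPM in WT mice and 457, 839.7 and 1039 CPM in KI mice. KI mice were above WT mice without overlap on both diets, and the difference was 0.49 ± 0.26 (adjusted p = 0.349). The difference was 0.48 ± 0.17 for Atf4, 0.16 ± 0.16 for Ddit3, -0.45 ± 0.35 for Trib3 and -0.22 ± 0.26 for Mthfd2 (adjusted p = 0.129, 0.675, 0.566 and 0.73), with 95% intervals of 0.13 to 0.82, -0.17 to 0.50, -1.17 to 0.26 and -0.76 to 0.32. A missing call does not show equal effects, and these intervals leave room for differences of the sizes given. Of the list only Phgdh and Gpt2 had a called interaction. Phgdh (chr3:98313170-98339990), the first enzyme of serine synthesis, was at 453, 478 and 540.2 CPM in chow-fed WT mice and 441, 607 and 739 CPM in chow-fed KI mice. Phgdh on HFD was at 166, 193 and 225 CPM in WT mice and 287, 454 and 480.3 CPM in KI mice. It was higher on HFD by 1.15 ± 0.11 without overlap and had 0.26 ± 0.12 on chow (adjusted p = 0.135), a difference of 0.89 ± 0.16 (adjusted p = 0.00171). Gpt2, the mitochondrial alanine aminotransferase, had 0.40 ± 0.13 on HFD and -0.53 ± 0.14 on chow, neither called, and a difference of 0.93 ± 0.19 (adjusted p = 0.00796), called in 18 of the 29 fits without 1 mouse (adjusted p up to 0.0194).

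The lists of this paragraph held no called interaction. Over all genes tested the shares called were 0.207% (more positive on HFD) and 0.425% (more negative). In lists of this size a count of 0 is near these shares and is no result about the lists. Of 19 aminoacyl-tRNA synthetases 9 were higher on HFD and 10 on chow, of 72 nuclear respiratory chain subunits 10 and 15 (with 1 lower on HFD), of 19 mitochondrial chaperones and proteases 5 and 7, and in these lists no interaction was called, their interaction medians being -0.043, -0.20 and -0.084. For the respiratory chain subunits the order of the diets turned on separate tables, with 15 higher on HFD and 2 on chow, and without the 8 libraries, with 11 and 2. Of 39 matrix genes 3 were lower and 1 higher on HFD and 7 were lower on chow (5 and 2 lower on separate tables), with none called between diets and an interaction median of 0.16. No interaction was called among mitochondrial dynamics genes (12 tested, with Mfn1 at -0.072 ± 0.12), ER chaperones (24), TGF-beta ligands and receptors (21), interferon-stimulated genes (18), circadian clock genes (17), adipogenic transcription factors (14), immediate early genes (14), hypoxia response genes (13) or proliferation genes (15). By edgeR at an unadjusted p below 0.05 there were 2927 interactions among all genes tested. The zeros thus depend on the threshold and the spread between mice and do not show equal effects.

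**Figure D5:**
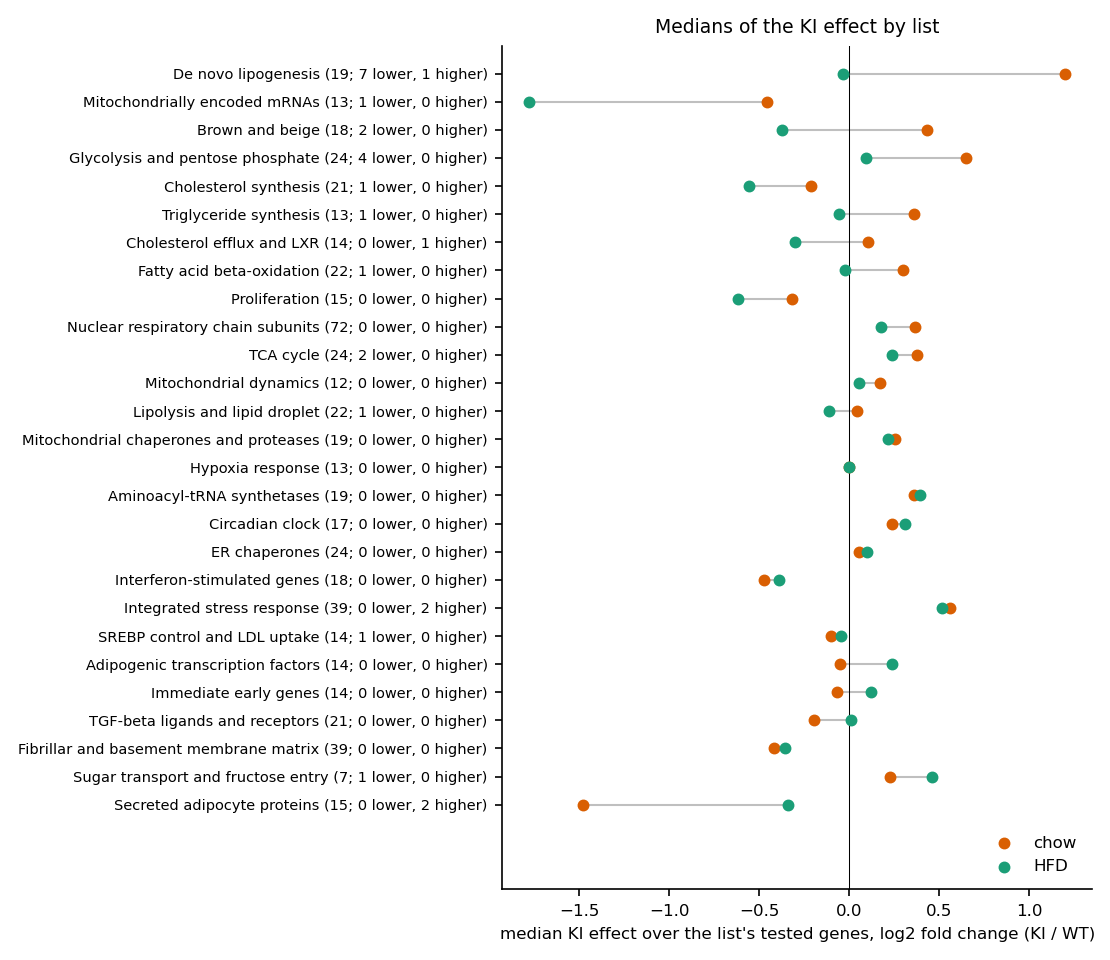
Median KI effect, as log2 fold change of KI over WT, over the tested genes of each list on chow and on HFD, ordered by the median of the interaction; labels give the number of genes tested and of called interactions lower and higher on HFD. The widest gaps are those of de novo lipogenesis (1.2 on chow and -0.034 on HFD), the mitochondrially encoded mRNAs (-0.46 and -1.78) and secreted adipocyte proteins (-1.48 and -0.34), while ISR genes and aminoacyl-tRNA synthetases have nearly equal medians.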

How the data were processed

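RNA of inguinal WAT was sequenced as polyA-selected libraries. The authors used cutadapt for trimming, STAR for alignment (build GRCm38), SAMtools, and featureCounts for counting reads per gene, per the labels and the study's methods (versions and strand setting not given in the sources used here). They deposited raw counts per gene, 1 table for each diet, with 1 column per mouse. How the 2 technical libraries of each HFD-fed mouse were joined is not given. The brown adipose tissue table was not used. All value columns used matched a labelled mouse.

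Of 54838 rows, 1884 with an empty count cell in at least 1 mouse and 101 that repeat a symbol were left out, which left 52853 genes, and filterByExpr by group kept 17400. All 29 mice entered 1 fit with a mean per group (R 4.3.3, edgeR 4.0.16, TMM, robust quasi-likelihood F test), with Benjamini-Hochberg adjustment over all genes tested and a call at adjusted p below 0.01, the threshold the study used. SE is the absolute log2 fold change divided by the square root of F. CPM are on TMM-scaled library sizes. Mice are labelled as separate animals. The fit was tested on simulated data with known changes.

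The members and gene lists were chosen with earlier results of these data known. Genes were named by a rule: the 8 largest changes in each direction among called genes with a mean of at least 1 CPM in a group and no overlap on a diet, up to 6 genes called in opposite directions, the called gene with the smallest p in each list, called cholesterol synthesis genes, and 12 fixed genes. Other list members, the genes of the closing section, Insig1 and the 3 promoters were chosen after their values were seen. Mouse numbers did not pair the mice. Alternatives were DESeq2 1.42.0, limma voom (limma 3.58.1), RLE size factors, other count filters, mitochondrial genes left out, 1 surrogate variable (sva 3.50.0), a replicate block, other thresholds, separate tables and leaving out each mouse. Leaving out libraries that stood apart was chosen after seeing the data, with limits of 5000 CPM of muscle, 200 CPM of lymphocyte and 100 CPM of epithelial or mesothelial markers. The values of 1 list gene are not reported here. Promoters are the 250 bases before RefSeq gene starts in GRCm38.p6.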

Additional observations from a re-analysis of the deposited data

Results flagged for a closer look

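The KI effect differed between chow and HFD, by the test of the interaction itself, for the 29 named genes with a call. As log2 fold changes of the interaction, the negative ones were Elovl3 (-8.27), Hephl1 (-5.46), Slc2a5 (-5.13), Atp4b (-5.07), Hapln4 (-5.04), Hebp2 (-3.84), Ncan (-3.46), Slc25a1 (-2.92), Agpat2 (-1.97), mt-Nd2 (-1.58), Plin2 (-1.46), Pkm (-1.35), Nsdhl (-1.22), Dlat (-1.12), Slc25a20 (-0.86), Elmod2 (-0.64) and Npc1 (-0.53). The positive ones were Phgdh (0.89), Apoe (1.05), Fgf11 (1.08), Gstm1 (1.43), Rbp4 (1.46), Fads1 (1.47), Cntfr (1.62), Timp4 (1.75), Morn4 (1.81), Gpx3 (2.03), Slc9b2 (2.52) and Agt (4.67).

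Each named gene was tested in each group of mice, and in 16 of these 164 tests 1 mouse was farther from its group than Dixon's 95% limit allows. Chance gives about 1 in 20 for a single such test, but these tests share mice, so the count cannot be set against that rate. In HFD-fed KI mouse 2, the library with the highest lymphocyte marker sum, 5 genes were the lowest of their group: Atf4 at 240.5 CPM, Atf5 at 457 CPM, Ddit3 at 69.3 CPM, Phgdh at 287 CPM and Mvk at 20.0 CPM. On chow, mt-Nd2 was highest in KI mouse 4, the muscle-marker library, at 4034 CPM, Slc25a20 was highest in KI mouse 1 at 148 CPM, and Gpx3 was lowest in KI mouse 3 at 504 CPM. Mfn2 was lowest in chow-fed WT mouse 4, the library with epithelial and mesothelial markers, at 130.0 CPM. Elmod2 was highest in HFD-fed WT mouse 4 at 39.9 CPM and lowest in chow-fed KI mouse 5 at 36.4 CPM. Fgf11 was lowest in HFD-fed WT mouse 1 at 7.99 CPM and highest in chow-fed WT mouse 5 at 25.6 CPM. Hmgcs1 was highest in HFD-fed KI mouse 3 at 218 CPM, Mvk was highest in HFD-fed WT mouse 5 at 45.0 CPM, and Atp4b was highest in chow-fed WT mouse 1 at 0.103 CPM.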

How the results depend on the processing

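The 110 called interactions became 414 with DESeq2 (108 of the 110 among them), 70 with voom, 168 with at least 10 counts in every mouse, 169 with a surrogate variable, 500 and 19 at adjusted p below 0.05 and 0.001, and 18 without the 8 libraries that stood apart (13 shared), and 69 to 269 without 1 mouse. Genes called on chow only (45) became 158 with DESeq2, 28 with voom, 71 with the stricter filter, 80 with a surrogate variable, 202 and 9 at the other thresholds, 7 without the 8 libraries, 24 on separate tables, and 25 to 127 without 1 mouse. Genes called on HFD only (45) became 172 with DESeq2, 73 with the stricter filter, 207 and 7 at the other thresholds, 6 without the 8 libraries, and 24 to 92 without 1 mouse. Opposite genes (6) became 17 with DESeq2, 41 and 2 at the other thresholds, 2 without the 8 libraries, and 3 to 11 without 1 mouse. The 7 lipogenic genes became 3 at 0.001 and 1 without the 8 libraries, with 6 to 8 without 1 mouse. The 4 glycolytic genes became 10 with DESeq2, 10 and 0 at the other thresholds and 0 without the 8 libraries, with 2 to 8 without 1 mouse. The 1089 calls on chow became 472 on the chow table alone. The cause of these changes was not tested. No named gene reversed.

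Mouse numbers did not pair the mice: of 14 pairs 3 had a correlation of deviations above 0.1 (-0.226 to 0.675) and 1 correlated best with its own number. With the replicate block 24 interactions were called (23 shared), 8 on chow only, 9 on HFD only, 1 lipogenic and 0 glycolytic. Of the named genes, Fads1, Hebp2, Ncan and Phgdh were called at 0.01 with every other tool, normalization, filter, covariate and set of mice tried, and Phgdh was not at 0.001. Tsku, Angptl8 and Cpa3, described below, were also called at 0.01 in all of these. Low counts limit Elovl3, Hephl1, Slc2a5, Hapln4 and Atp4b, which had under 10 counts in at least 1 mouse and could not be tested with the stricter filter.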

Other observations

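Among other called genes of secreted or surface proteins, several were higher in KI mice on chow only. Tsku (chr7:98350668-98361328), which encodes the secreted proteoglycan tsukushi, was at 5.96, 8.56 and 11.2 CPM in chow-fed WT mice and 35, 67.4 and 198 CPM in chow-fed KI mice. Tsku on HFD was at 12, 15.8 and 18.7 CPM in WT mice and 12, 22.2 and 38.3 CPM in KI mice. KI and WT mice were apart on chow and overlapped on HFD, and the interaction was -2.70 ± 0.38 (adjusted p = 0.000262). Angptl8 (chr9:21835510-21837347), a feeding-induced regulator of lipoprotein lipase, was at 3.96, 8.38 and 10.2 CPM in chow-fed WT mice and 14.2, 21.3 and 67.8 CPM in chow-fed KI mice. Angptl8 on HFD was at 7.11, 14.1 and 21.7 CPM in WT mice and 3.93, 7.33 and 10.9 CPM in KI mice. Its effect was 1.90 ± 0.30 on chow and -0.95 ± 0.26 on HFD (adjusted p = 5.65e-05 and 0.0124), with an interaction of -2.85 ± 0.40 (adjusted p = 0.000186). Pth1r, the parathyroid hormone receptor, had 2.14 ± 0.28 on chow and -0.21 ± 0.25 on HFD, and Cpa3, a mast cell carboxypeptidase, 1.61 ± 0.25 and -0.75 ± 0.22, with called interactions of -2.35 ± 0.37 and -2.35 ± 0.33. Igfbp4 (chr11:99041244-99054392), an IGF-binding protein, was at 857, 999 and 1437 CPM in chow-fed WT mice and 1106, 1454 and 1796 CPM in chow-fed KI mice. Igfbp4 on HFD was at 303, 419 and 468 CPM in WT mice and 632, 1074 and 1290.3 CPM in KI mice. It was higher on HFD by 1.37 ± 0.13 without overlap, and the interaction was 0.94 ± 0.20 (adjusted p = 0.0081), called in 15 of the 29 fits without 1 mouse (adjusted p up to 0.0179).

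Of 18 brown and beige fat genes 5 were higher on chow (Cidea, Cox8b, Cox7a1, Elovl3 and Kcnk3) and 4 lower on HFD (Elovl3, Dio2, Prdm16 and Otop1), and Elovl3 and Kcnk3 had a called interaction, that of Kcnk3 in 13 of the 29 fits without 1 mouse (adjusted p up to 0.0168). On the chow table alone 2 were higher. The list's interaction median was -0.939. Without the 8 libraries that stood apart 2 genes were higher on chow and 5 lower on HFD. The interaction median was then -0.446, with 1 called interaction. Chow-fed KI mouse 4, the muscle-marker library, was among these libraries, and the part of muscle in this list was not tested. Among all genes tested 3.45% were higher on chow and 3.88% lower on HFD. Ucp1, the uncoupling protein, was at most 0.978 CPM in chow-fed KI mice and 1.98 CPM in HFD-fed WT mice, and its interaction of -0.97 ± 1.01 was not called.

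Among genes higher in KI mice on both diets with the larger effect on chow, Chchd10 (chr10:75933130-75937747), a mitochondrial intermembrane space protein, was at 22.7, 43.1 and 60.3 CPM in chow-fed WT mice and 663, 985 and 2431 CPM in chow-fed KI mice. Chchd10 on HFD was at 30.7, 50.4 and 80.5 CPM in WT mice and 190.5, 325 and 441 CPM in KI mice. KI mice were above WT mice without overlap on both diets, and the interaction was -2.15 ± 0.36 (adjusted p = 0.00145). Mmp11 (chr10:75923222-75936496), a matrix metalloprotease gene that overlaps Chchd10, had 4.01 ± 0.29 on chow and 1.82 ± 0.24 on HFD, and with the strand setting not given reads of these genes may not be separated. Gyg, the glycogenin that primes glycogen, had 1.32 ± 0.083 on chow and 0.68 ± 0.074 on HFD, without overlap on either.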
